A study of Mus musculus with 4 samples.

Results

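The genes followed, 10 in all, act in retinoic acid synthesis, binding, clearance and reception, and were read in node-containing distal pieces of headfold-stage mouse embryos: Stra6, Rdh10, Aldh1a2, Crabp1, Crabp2, Cyp26a1, Cyp26b1, Rara, Rarb and Rarg. They were chosen by name, through the gene name or accession that the array gives each probe. All 10 had probes, 15 in all, and all 15 were measured, of 27788 measured probes for 18607 genes. Measured here means that both arrays read the probe well above background for at least 1 of the genotypes.

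The study asked which genes act in node ciliogenesis downstream of FOXJ1, and compared 2 genotypes at Noto, which encodes a homeobox factor needed in the node and notochord and here carries a GFP insertion. Homozygous (Noto GFP/GFP) and heterozygous (Noto GFP/+) embryos of a Sv129/CD-1 hybrid background were collected at about E7.75, the early headfold stage. The distal pieces of 120 to 150 embryos were pooled for RNA, and titles and protocols give different sizes for this piece. The sample labels name heterozygotes, whereas the text on the design of the series calls the samples wild type and mutant. The labels were followed here, and by them both genotypes carry the GFP allele and the same mixed background, so that each ratio sets homozygotes against heterozygotes with no wild-type level. One RNA pool of each genotype was labelled and hybridised together on each of 2 two-colour arrays. On array 1 the homozygote carried Cy5 and the heterozygote Cy3, and on array 2 the dyes were exchanged. Slide and day of scanning differed between the arrays, so array and dye orientation cannot be told apart, but each array held both genotypes. The arrays are technical repeats of 1 pool per genotype. No test was made, no p-value is given, and every SD below is the spread over 2 arrays (n = 2 throughout), save that over the spots of Rarb.

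Retinoic acid is made from vitamin A in successive oxidation steps. STRA6 takes retinol into the cell, RDH10 oxidises it to retinaldehyde, and ALDH1A2 (also named RALDH2) oxidises that to retinoic acid. CRABP1 and CRABP2 bind retinoic acid in the cytoplasm, and CYP26 enzymes degrade it. RARA, RARB and RARG are nuclear receptors that pair with RXR proteins on DNA and switch target genes on when retinoic acid binds. In the mouse embryo at this stage Aldh1a2 is known for its expression in mesoderm beside the node, and Cyp26a1 for regions that are kept free of retinoic acid. Rarb and Cyp26a1 are themselves known targets of the pathway.

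No gene among the 10 met the size rule, which calls a gene lower or higher when its homozygote over heterozygote ratio passes 1.5-fold, 0.58 in log2 units, in 1 direction on each array. The brightest measured probe stands for its gene. By this rule 2.33% of all measured genes were lower and 0.0591% were higher, against 0 of 10 members in each direction. At 2-fold, 0.505% of all measured genes were lower and 0.0107% higher, and at the laxer limit of 0.32 in log2 units 6.37% were lower and 1.19% higher, with 0 members in each direction at either limit. Mean log2 ratios of the 10 genes ran between -0.39 for Rarb and 0.08 for Crabp2, with a median of -0.08, where the median of all measured genes was -0.02. Of the 10 genes, 4 had ratios below 0 on both arrays, namely Rarb, Aldh1a2, Cyp26a1 and Rdh10, beside 34.0% of all measured genes. Rara was the 1 gene above 0 on both arrays, beside 25.7% of all measured genes. The median over the members was -0.16 on array 1 and 0.02 on array 2, so it had no common sign.

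The spread between arrays was as large as most of these ratios. The median SD over arrays was 0.12 across all measured genes, and 8 of the 10 members had an SD above it. The mean ratio lay farther from 0 than its SD in 4 members (Rarb, Aldh1a2, Cyp26a1 and Rara), where 49.9% of all measured genes did so.

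**Figure D1:**
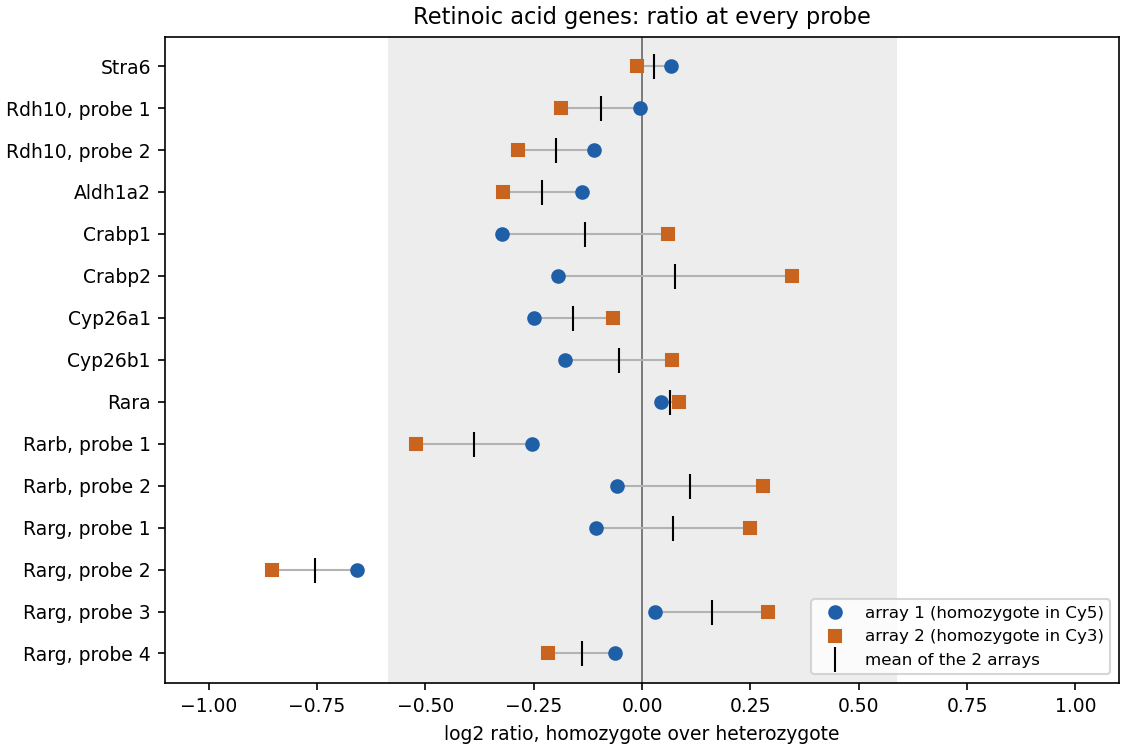
Log2 ratio of homozygote over heterozygote at each of the 15 probes, ordered by role; circles are array 1, squares array 2, bars their mean, and the grey band is the range inside 1.5-fold. The second Rarg probe, at -0.66 and -0.85, is the 1 probe outside the band on both arrays, and Crabp2 (-0.19 and 0.35) has the widest gap between arrays.

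Levels are given below as log2 intensity after loess within each array and scaling of the arrays to each other (the Aquantile method of limma). They show which samples of 1 probe are high or low. Levels of different probes are not compared, since each probe binds with its own strength. In pooled tissue, fewer cells of a type and less RNA per cell cannot be told apart. Probe positions are given on build mm8 of the mouse genome. No gene model of that build was used, so exon and untranslated parts were not assigned.

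For uptake, Stra6 was read by a probe at chr9:57950709-57951320, whose 60 bases are spread over 612 bases of genome and so cross an intron. Its level was 9.24 and 9.75 in homozygotes, against 9.18 and 9.76 in heterozygotes. Both genotypes were lower on array 1, and the genotypes overlapped. The log2 ratio was 0.03 ± 0.06, and the sign differed between the arrays.

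For the first oxidation step, the brighter Rdh10 probe (chr1:16117195-16117254) had levels of 11.14 and 10.99 in homozygotes, against 11.15 and 11.18 in heterozygotes. The homozygous values lay below the heterozygous ones, by very little on array 1, where the ratio was -0.0040. The ratio was -0.19 on array 2, and the mean was -0.10 ± 0.13. The other Rdh10 probe (chr1:16116611-16116670) gave -0.11 and -0.29, with a mean of -0.20 ± 0.12. Both Rdh10 probes thus read below 0, by an amount close to the spread between arrays.

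For the second step, the Aldh1a2 probe (chr9:71094684-71094743) was bright, brighter than 93.4% of measured genes. Its scanned foreground was 86242.5 in Cy5 and 49924 in Cy3 for homozygotes, against 33347.5 in Cy3 and 163165 in Cy5 for heterozygotes, over local backgrounds of 44 to 64. On either array the sample in Cy5 was the brighter one, whatever its genotype. After loess the level was 15.94 and 16.00 in homozygotes, against 16.08 and 16.32 in heterozygotes, so that both homozygous values lay below both heterozygous ones. The ratio was -0.14 on array 1 and -0.32 on array 2, with a mean of -0.23 ± 0.13, a fold of 0.853. This rests on the dye correction. With each array only centred on its median, the ratios were 0.78 and -0.87. Their mean was -0.04, where the median of all measured genes was 0.12.

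**Figure D2:**
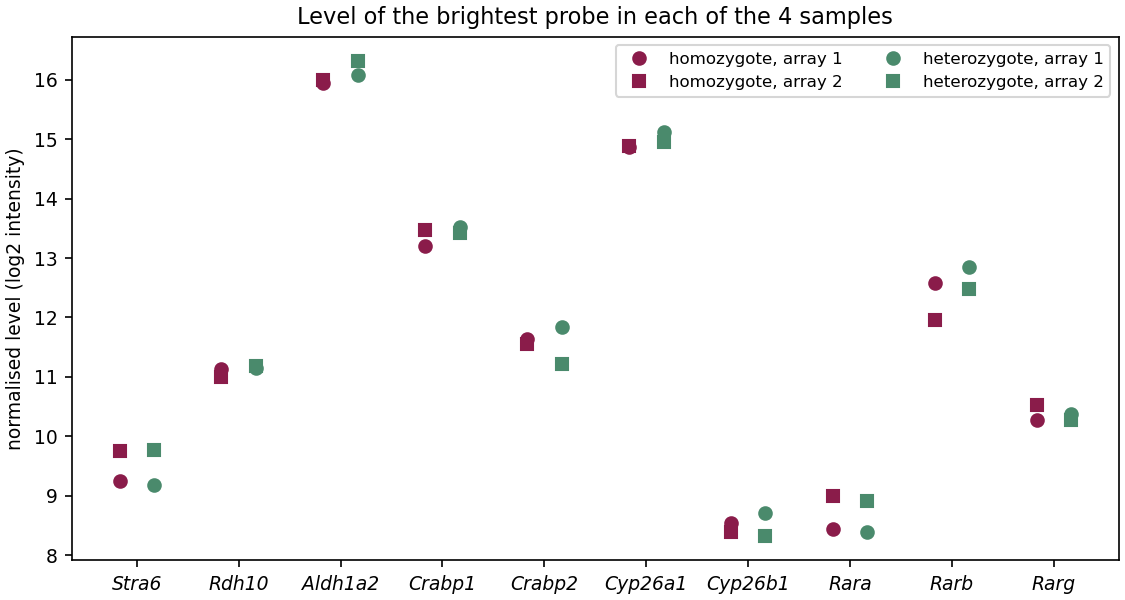
Normalised log2 level of the brightest probe of each gene in the 4 samples, with homozygotes to the left (dark red) and heterozygotes to the right (green), circles for array 1 and squares for array 2. Aldh1a2, Cyp26a1 and Rdh10 have both homozygous values below both heterozygous ones, and the genotypes overlap in the other 7 genes. For Rdh10 the ratio on array 1 was only -0.0040. The share of all measured genes that separate in this way was not computed, so the count is description only. Heights of different genes are not comparable.

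Of the binding proteins, Crabp1 (chr9:54566522-54566581) had levels of 13.20 and 13.48 in homozygotes, against 13.52 and 13.42 in heterozygotes. Its ratio was -0.32 on array 1 and 0.06 on array 2, with a mean of -0.13 ± 0.27. Crabp2 (chr3:88034687-88034746) had levels of 11.65 and 11.56 in homozygotes, against 11.84 and 11.21 in heterozygotes. Its ratio was -0.19 on array 1 and 0.35 on array 2, with a mean of 0.08 ± 0.38. The SD of Crabp2 was above 0.32, the 90th percentile of all measured genes, and neither binding protein had a ratio of 1 sign. With median centring in place of loess, Crabp2 read 0.26 and 0.28, where the median of all measured genes was 0.12.

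Of the degrading enzymes, Cyp26a1 (chr19:37766220-37766279) had levels of 14.87 and 14.89 in homozygotes, against 15.12 and 14.96 in heterozygotes. Both homozygous values lay below both heterozygous ones, and the ratio was -0.25 on array 1 and -0.07 on array 2, with a mean of -0.16 ± 0.13. The probe was brighter than 85.1% of measured genes. With median centring the mean changed sign to 0.06 (0.51 and -0.39), where the median of all measured genes was 0.12.

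Cyp26b1 (chr6:84537616-84537675) had levels of 8.53 and 8.39 in homozygotes, against 8.71 and 8.32 in heterozygotes, with overlap. Its ratio was -0.18 on array 1 and 0.07 on array 2, with a mean of -0.05 ± 0.17. Cyp26b1 lies on chromosome 6 near Noto, the targeted gene. In the RefSeq annotation of assembly GRCm38.p6, used only for neighbour order, 16 annotated genes lie between them, 5 of which code for protein, and 0 of the 5 measured genes in this interval were called. No probe was named Noto by the annotation used here, so its level was not analysed and the genotype labels have no check from it.

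Of the receptors, Rara (chr11:98786635-98786694) had the smallest spread. Its level was 8.44 and 9.004 in homozygotes, against 8.40 and 8.92 in heterozygotes, and both genotypes were lower on array 1. The ratio was 0.04 on array 1 and 0.08 on array 2, with a mean of 0.06 ± 0.03.

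Rarb gave the ratio farthest from 0. The array prints its brightest probe (chr14:15224264-15224323) in 10 spots, which measures the error within an array. The levels were 12.59 and 11.96 in homozygotes, against 12.84 and 12.48 in heterozygotes. The homozygote was the lower one on each array, though the range over both arrays overlapped, since both genotypes read lower on array 2. On array 1 the ratios of the 10 spots ran between -0.31 and -0.19, with an SD of 0.040. On array 2, where 8 spots were free of outlier marks, they ran between -0.55 and -0.49, with an SD of 0.025. Every usable spot was below 0 on both arrays, and the spots of the arrays did not overlap, so the gap between arrays exceeded the error within them. The mean was -0.39 ± 0.19, a fold of 0.764, and 7.23% of measured genes had a lower mean.

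The other Rarb probe did not share this. Its 60 bases are spread over chr14:15341785-15368493, 26709 bases, so it crosses at least 1 intron. Its levels were 7.29 and 7.47 in homozygotes, against 7.34 and 7.19 in heterozygotes, with a ratio of -0.06 on array 1 and 0.28 on array 2. It was dimmer than all but 2.44% of measured genes, and in the heterozygote on array 2 it was not well above background. The mean of both Rarb probes was -0.14. With median centring the bright probe read 0.26 and -0.61, so its sign turned on array 1, while the mean, -0.17, was still below 0. Over all measured genes the median was then 0.12.

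Rarg has 4 probes, and they disagreed. The brightest (chr15:102063912-102063971) had levels of 10.27 and 10.53 in homozygotes, against 10.37 and 10.28 in heterozygotes, and a ratio of -0.11 on array 1 and 0.25 on array 2. Its mean was 0.07 ± 0.25. A probe across an intron (chr15:102064224-102066864) gave 0.03 and 0.29.

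The remaining Rarg probes were designed on another transcript record and lie beside each other. The one at chr15:102070014-102070073 was lower by the size rule, the 1 call among 15 member probes, where 2.08% of all measured probes were called in either direction. Its levels were 9.40 and 8.88 in homozygotes, against 10.05 and 9.74 in heterozygotes, without overlap. Its ratio was -0.66 on array 1 and -0.85 on array 2, with a mean of -0.76 ± 0.14. The neighbouring probe (chr15:102070108-102070167) gave -0.06 and -0.22, but it was dim and in the homozygote on array 2 not well above background. The lower probe passed the rule with no background correction (-0.63 and -0.85), with the scanner software's processed ratios (-0.73 and -0.91) and with the authors' value table (-0.73 and -0.96). With median centring it missed the rule on array 1 (-0.42 and -0.91). Which Rarg transcripts this probe reads was not tested.

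Rarb and Cyp26a1 are both known for a retinoic acid response element at the start of the gene. Such an element is a direct repeat of a hexamer. The hexamers searched were AGTTCA, then AGGTCA, further GGTTCA, and lastly GGGTCA, each followed by any of the 4, with 1, 2 or 5 bases between the repeats, on both strands, in windows of 250 bases before and 50 after each gene start (RefSeq, GRCm38.p6). Windows were at hand for 8 of the 10 genes, 15 windows in all, and 2 of them held a repeat. Of all 32851 windows, 0.0974% held a repeat with 5 bases between, 0.268% with 2 and 0.222% with 1. The windows with a repeat are printed 5′ to 3′ with the repeat in capitals.
Rarb, chr14:16575427-16575726, minus strand: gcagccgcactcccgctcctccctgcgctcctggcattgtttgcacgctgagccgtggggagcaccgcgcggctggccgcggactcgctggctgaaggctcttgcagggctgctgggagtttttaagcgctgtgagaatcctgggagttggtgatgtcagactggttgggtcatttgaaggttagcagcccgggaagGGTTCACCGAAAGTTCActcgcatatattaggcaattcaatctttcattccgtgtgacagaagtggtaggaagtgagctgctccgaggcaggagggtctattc
Cyp26a1, chr19:37697558-37697857, plus strand: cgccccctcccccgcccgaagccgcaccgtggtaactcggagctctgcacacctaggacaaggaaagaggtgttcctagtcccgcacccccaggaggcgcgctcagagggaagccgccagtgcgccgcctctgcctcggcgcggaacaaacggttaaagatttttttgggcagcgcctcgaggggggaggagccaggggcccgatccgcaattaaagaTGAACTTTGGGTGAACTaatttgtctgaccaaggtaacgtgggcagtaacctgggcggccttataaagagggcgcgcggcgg

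In Rarb the repeat occupies bases 53 to 37 before the start and reads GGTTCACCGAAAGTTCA. In Cyp26a1 it occupies bases 32 to 16 before the start and reads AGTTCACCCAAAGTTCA on the other strand. Both have a spacing of 5 bases. The other windows searched, of Stra6, Aldh1a2, Crabp1, Cyp26b1, Rara and Rarg, do not hold these letters. A match describes the sequence and measures no binding. The elements of Rarb and Cyp26a1 were known beforehand, so finding them was no test. Any link between a repeat and the ratios was not tested.

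Other genes of the pathway were read from 3 lists, described by counts beside those of all measured genes. Of 36 listed genes of retinoid transport, storage and metabolism, 23 were measured, and 0 were called in either direction. Their median was -0.018 ± 0.0064 (SD of the array medians); 9 lay below 0 and 6 above 0 on both arrays. Dhrs3, a reductase that turns retinaldehyde back to retinol and is induced by retinoic acid, lay farthest from 0 at -0.47 ± 0.24 (-0.30 and -0.64), and its other probe read -0.44. Aldh1a1, another retinaldehyde dehydrogenase, read -0.45 ± 0.24 (-0.28 and -0.62) on a dim probe, and Aldh1a3 read 0.23 ± 0.18. Rbp4, the retinol carrier of plasma, read -0.10 ± 0.25. No probe was named Cyp26c1 by the annotation used, so it was not analysed here.

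Of 22 receptor partners and cofactors, 20 were measured and 0 called, with a median of 0.027 (SD of the array medians 0.039). On both arrays 5 lay below 0 and 7 above 0. The partner receptors Rxra, Rxrb and Rxrg read -0.09 ± 0.01, -0.12 ± 0.29 and 0.30 ± 0.23. The other Rxra probe read 0.14. The orphan receptor Nr2f2 read -0.49 ± 0.30 (-0.28 and -0.70), and its other probes read -0.63 and -0.30.

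Of 38 genes known to respond to retinoic acid, 34 were measured and 0 called. The list was written with earlier results of these data known, so its counts are description only. Most of the 34 genes read below 0. The median of their mean ratios was -0.18. On both arrays 24 of 34 (70.6%) lay below 0, beside the 34.0% of all measured genes given above. Pax6 (0.45 ± 0.14) was among the 3 above 0 on both. The medians on array 1 and array 2 were -0.15 and -0.13, with an SD of 0.012. The zinc finger gene Tshz1 read -0.58 ± 0.04 and its other probe -0.28. Cdx1, a caudal homeobox gene, read -0.54 ± 0.30 (-0.75 and -0.33), Hoxb1 read -0.26 ± 0.29, and Fgf8 read -0.24 ± 0.18. Of the 12 measured Hox genes 9 lay below 0 and 0 above 0 on both arrays. With median centring 7 of the 34 responsive genes lay below 0 on both arrays, a share near the 19.9% of all measured genes. The larger share below 0 was thus not seen with median centring. With the software's processed ratios and with the authors' value table it was seen, at 24 of 34 beside 31.9% of all measured genes. The median of the responsive genes, -0.030, still lay below the 0.12 over all genes. The responsive list does not sort genes by whether retinoic acid raises or lowers them. Genes of 1 list share arrays, dye curve and tissue domains and are not independent of each other. In all, 6 genes stand in more than 1 of the pathway lists.

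**Figure D3:**
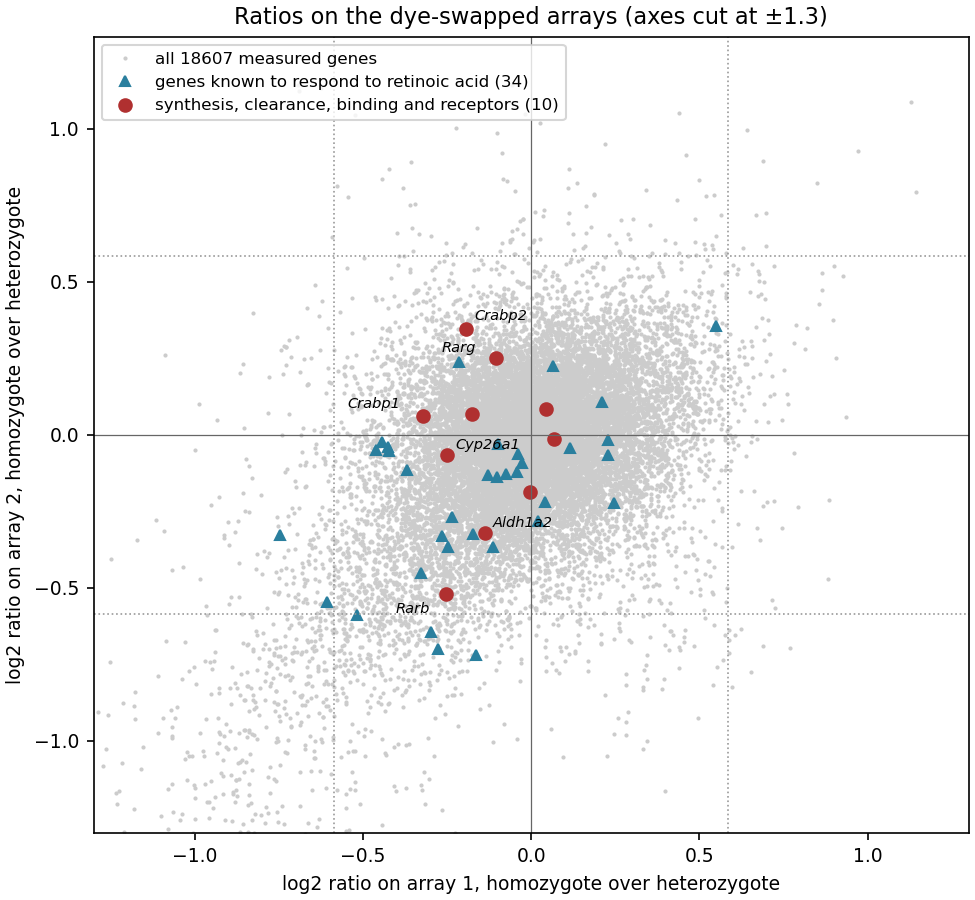
Log2 ratio on array 1 (horizontal) against array 2 (vertical) for all 18607 measured genes (grey), the 34 measured genes known to respond to retinoic acid (triangles) and the 10 members (circles); dotted lines mark 1.5-fold. No member and no responsive gene lies beyond the dotted lines on both arrays, and 24 of the 34 triangles lie below 0 on both axes.

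The array held markers of the labelled tissue and of other tissues. Of 14 node and notochord markers 13 were measured and 0 called, with a median of -0.09; Gsc (-0.66 ± 0.20) and Foxd4 (-0.57 ± 0.09) lay farthest from 0, and Foxj1 read -0.52 ± 0.09. In the paraxial mesoderm list, which holds Aldh1a2 itself, 1 of 11 was lower, Meox1 (-0.62 ± 0.04), Tcf15 read -0.52 ± 0.67, and the median was 0.03. The summed level of the paraxial list was 335745 and 387047 in homozygotes, against 339999 and 410914 in heterozygotes, overlapping. In blood 3 of 9 were lower, all of them globins (Hbb-bt -1.36 ± 0.07, Hba-a1 -1.05 ± 0.18, Hba-a2 -0.86 ± 0.07). The rest were not called: Hbb-y read -0.44, Hbb-bh1 -0.19, Alas2 -0.09, Klf1 -0.07, Epor -0.04 and Gata1 0.21. The summed level of the blood list, which includes the called globins, was 12773 and 9929 in homozygotes, against 21609.6 and 16110.4 in heterozygotes. In decidua and trophoblast 1 of 8 was higher (Prl8a2 1.11 ± 0.03), and Plet1 read -0.53 ± 0.18. The list as a whole did not follow Prl8a2: its median was -0.28, with 5 genes below 0 and 3 above 0 on both arrays. Its summed level was 19035 and 16653 in homozygotes, against 21537 and 21442 in heterozygotes, without overlap. None was called among 9 genes of the streak and caudal epiblast (T 0.33 ± 0.02, Nkx1-2 -0.30 ± 0.17 with other probes at 0.03 to 0.37), 13 of the neural plate (Pax6), 10 of visceral endoderm (Lrp2 0.39 ± 0.12, Cubn 0.24 ± 0.18) and 12 of the early heart (Nppa -0.61 ± 0.03, Myh6 0.48 ± 0.06). The summed level of the neural plate list, which shares Egr2, Hoxb1, Pax6 and others with the responsive genes, was 91175 and 105356 in homozygotes, against 119115 and 132463 in heterozygotes, without overlap. The part of these tissues in the ratios of the retinoic acid genes was not tested.

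The ratios of single arrays depended on the dye correction. On array 1 median centring without loess gave 9 of the 10 genes a higher ratio than loess did, Rara being the exception. Of the 5 members whose probe outshone that of the median gene, 4 then had ratios of opposite sign on the arrays, and Crabp2 did not.

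**Figure D4:**
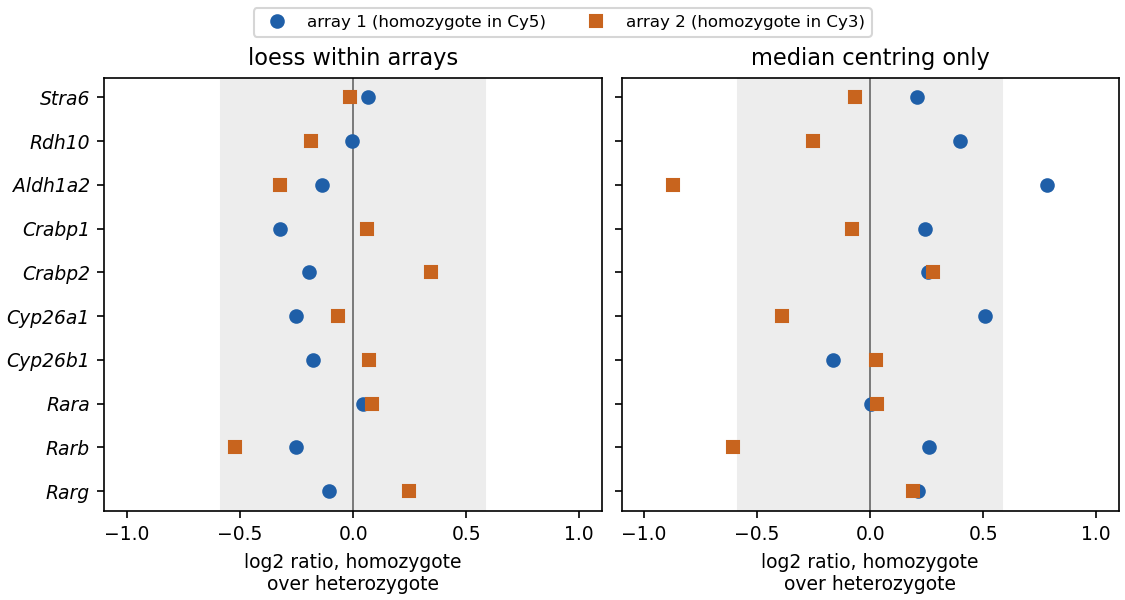
Log2 ratios of the 10 genes on array 1 (circles) and array 2 (squares) with loess within arrays (left) and with median centring only (right); the grey band is inside 1.5-fold. Aldh1a2 reads -0.14 and -0.32 on the left, and 0.78 and -0.87 on the right.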

How the data were processed

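The 4 samples were measured on 2 two-colour arrays with exchanged dyes; paired samples had identical files, so each array was read once. Per the file headers, the authors read the scans with Agilent Feature Extraction (9.5.3.1 per the submitters' processing notes), which gave foreground and background intensity per spot, processed intensity, and the log10 of the red to green ratio. A value table was deposited as well, with linear intensity per sample, floored at 15, with column medians of 109.6 and 95.1 for homozygotes and 110.6 and 96.2 for heterozygotes on arrays 1 and 2; its scaling method is unstated.

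From mean foreground and median background, limma 3.58.1 (R 4.3.3) applied normexp (offset 50) and loess within arrays, with control spots (1639) at weight 0. Outlier spots (179 and 165 of 43379 gene spots) were left out, and 0 gene spots were saturated. Of the gene spots, 81.5% and 64.0% were well above background in homozygotes, and 77.7% and 68.1% in heterozygotes, on arrays 1 and 2. Ratios were turned to homozygote over heterozygote, and spots of a probe averaged; a probe with several spots counted as well above background when most were. Accessions, symbols or synonyms in RefSeq (GRCm38.p6) named 33113 of 41174 probes, and 8061 kept the file's name. The members, lists and rules were chosen with earlier results of these data known. All 10 members were named, and of each of 3 pathway and 8 marker lists up to 4 called genes, or, with fewer than 2 called, the 2 farthest from 0, plus regulators given whatever their values; a few genes so chosen are not reported here. The pipeline was tested on simulated data. The number of arrays limits the precision. A planned comparison of member proteins was not made. Python 3.11.15, numpy 2.4.6, pandas 2.3.3 and matplotlib 3.10.9 were used.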

Additional observations from a re-analysis of the deposited data

How the results depend on the processing

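The values are limited by having only 1 RNA pool for each genotype on arrays that are technical repeats, an intensity-dependent dye effect and dim probes. No paired analysis was possible because no test was run; each ratio already sets both genotypes against each other within an array. The counts of called members stayed at 0 in each direction with no background correction, the software's processed ratios and the value table. They were also 0 with median centring, the mean of probes, either array alone, and calls at 0.32 in log2 units. Without the filter on dim probes and at 2-fold, counts of 0 were fixed in advance. All member probes were measured, and a gene short of 1.5-fold cannot pass 2-fold. Why the values below shifted was not examined, and the cause was not tested.

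With median centring the median of the members was 0.065, 0 members lay below 0 and 3 above 0 on both arrays, and the median of all measured genes was 0.12. With the processed ratios and with the value table, 2 members each lay above 0 on both arrays. Over single arrays the members' median ran between -0.16 and 0.024. The median of the transport, storage and metabolism list was -0.0028 with processed ratios, 0.018 with the value table, 0.15 with median centring and 0.0074 without the filter, and ran between -0.027 and -0.018 over single arrays. The median of the partners and cofactors was 0.23 with median centring. The median of the responsive genes was -0.15 with processed ratios and with the value table, -0.030 with median centring, -0.21 with the mean of probes and -0.13 without the filter, and ran between -0.15 and -0.13 over single arrays. Over all genes, 713 were lower and 101 higher with processed ratios, and 95 higher with the value table, against 434 lower and 11 higher.

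Of 41 named genes, 21 moved by more than their SD over arrays with median centring. The count was 5 with processed ratios, 6 with the value table, 5 with the mean of probes and 1 with no background correction. It was 0 without the filter on dim probes, where these genes kept the same values. With either array alone a count of 0 was fixed in advance, since the mean lies nearer to either array than the SD. Of the called genes, 0 changed sign.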

Other observations

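Neighbouring genes of the Hoxb cluster on chromosome 11, chosen after their values were seen, split by array in the same way. Hoxb1, Hoxb2, Hoxb3 and Hoxb4 read -0.46, -0.44, -0.42 and -0.42 on array 1, but -0.05, -0.02, -0.05 and -0.04 on array 2. Hoxb5 read -0.07 and -0.13. Among other genes of the responsive list the order of the arrays varied: Cdx1 read -0.75 on array 1 and -0.33 on array 2, and Tshz1 -0.61 and -0.54, while Hoxa5 read -0.16 and -0.72, and Nr2f2 -0.28 and -0.70.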
